A study of Caenorhabditis elegans with 2 samples.

Results

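The peaks described here were the weaker sites of DIE-1 chromatin immunoprecipitation that lay away from gene starts. They were the nuclear peaks of the relaxed list called on the pooled reads whose signal was at least 50 and below 70. Their summits lay more than 200 bp from every tRNA, snoRNA, snRNA, rRNA and miRNA gene. They also lay outside promoter windows, which reached 1000 bp before and 300 bp after each start of a protein-coding transcript in the WBcel235 (ce11) gene models. Of 29979 nuclear peaks in that list, 2153 were within the signal limits. Of these, 98 lay near a short RNA gene, 959 lay in a promoter window, and the remaining 1096 are called the weaker peaks outside promoters. None of the 1096 was in the list of reproducible peaks that the authors made from both replicates. The peaks were chosen by their pooled signal, so signal values are given as a description and were not tested.

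The animals were young adult hermaphrodites of the Caenorhabditis elegans strain RW10316, which carries a transgene of DIE-1 fused to eGFP. They were collected 64 hours after synchronization from L1 larvae starved after bleaching, and chromatin of the whole organism was sheared by sonication and taken with anti-GFP. The series held 1 group with 2 biological replicates and no second genotype, stage or treatment, so no group contrast could be made. A worm without the tagged protein and the input chromatin were not analysed here.

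DIE-1 belongs to the zinc finger transcription factors and is known for its part in shaping the embryonic epidermis and in the left and right difference of the ASE taste neurons. In chromatin immunoprecipitation a peak marks DNA recovered more often than its surroundings with the tagged protein, and the summit is the position of most recovery. The worm genome is compact: genes lie close together, introns are mostly short, and the end of a gene is often near a neighbour. A peak outside promoters can therefore lie in an exon, an intron, past the end of a transcript, or in a long gap between genes. Signal in whole worms sums over many cell types, so fewer cells with a site and less binding per cell cannot be told apart.

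Sequences under the summits that ranked first show examples of these sites. Each window takes a summit and 50 bases on either side of it, written 5′ to 3′ on the + strand of WBcel235 in lower case. Capitals mark matches, on either strand, to any of 14 short words that were searched, spelled out with their shares further on. The first set holds the 8 highest ranked weaker peaks, by the lower of their replicate signals, whose window touched no untranslated exon, with 1 chromosome left out of the sequences shown. Of the 8, all but pde-2 shared a replicate peak with another pooled peak, so their replicate signals and rank are not theirs alone.
lag-1 (chrIV:6100170-6100270, + strand): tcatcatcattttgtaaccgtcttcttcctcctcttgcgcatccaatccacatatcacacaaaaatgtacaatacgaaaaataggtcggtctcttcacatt
gyg-2 (chrV:16745258-16745358, + strand): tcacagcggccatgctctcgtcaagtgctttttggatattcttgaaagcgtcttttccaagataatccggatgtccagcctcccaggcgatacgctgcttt
mdl-1 (chrX:6750545-6750645, + strand): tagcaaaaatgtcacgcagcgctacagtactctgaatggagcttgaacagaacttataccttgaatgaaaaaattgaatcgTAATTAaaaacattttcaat
nadk-2 (chrII:12050706-12050806, + strand): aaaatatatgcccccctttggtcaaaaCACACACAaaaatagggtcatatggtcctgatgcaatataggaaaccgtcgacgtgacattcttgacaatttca
gpb-1 (chrII:11750007-11750107, + strand): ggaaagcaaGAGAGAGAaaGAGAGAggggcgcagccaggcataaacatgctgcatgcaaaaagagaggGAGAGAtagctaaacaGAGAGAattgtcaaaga
pde-2 (chrIII:8984144-8984244, + strand): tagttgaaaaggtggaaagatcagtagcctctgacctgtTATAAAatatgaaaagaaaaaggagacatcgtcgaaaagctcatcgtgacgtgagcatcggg
larp-1 (chrIII:5014091-5014191, + strand): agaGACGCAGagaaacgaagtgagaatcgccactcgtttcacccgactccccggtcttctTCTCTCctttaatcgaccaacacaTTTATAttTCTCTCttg
srh-2 (chrV:729209-729309, + strand): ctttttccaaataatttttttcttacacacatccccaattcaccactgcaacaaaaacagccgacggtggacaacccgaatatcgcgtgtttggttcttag
The windows at gpb-1 and larp-1 held the GA repeat word GAGAGA or its reverse complement TCTCTC more than once. The window at larp-1, an RNA-binding protein gene, also held CTGCGTC as its reverse complement GACGCAG. The windows at lag-1, gyg-2 and srh-2 held none of the words. GC content ran between 32.7% at mdl-1 and 49.5% at gyg-2, and every 31-base word in the 8 windows was found once in the genome.

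The second set holds weaker peaks with the word GTTCGANNC, the core of the B box that RNA polymerase III promoters of tRNA genes carry inside the gene. Of the 1096 summits, 18 (1.64%, 95% interval 1.04 to 2.58) had this word in the window. This interval covers the share of relaxed peaks outside promoters, which is given further on with the other words. The rule had left out every summit within 200 bp of an annotated tRNA gene. The first 6 by rank are shown, with the same limits on position.
F41B5.12 (chrV:2262311-2262411, + strand): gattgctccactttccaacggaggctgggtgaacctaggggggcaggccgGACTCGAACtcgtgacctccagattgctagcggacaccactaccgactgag
snt-6 (chrII:752035-752135, + strand): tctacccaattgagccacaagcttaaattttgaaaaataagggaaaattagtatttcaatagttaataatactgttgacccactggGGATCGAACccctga
dot-1.3 (chrX:12304380-12304480, + strand): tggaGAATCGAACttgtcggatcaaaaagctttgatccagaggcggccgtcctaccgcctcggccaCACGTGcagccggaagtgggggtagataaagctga
Y77E11A.12 (chrIV:1470546-1470646, + strand): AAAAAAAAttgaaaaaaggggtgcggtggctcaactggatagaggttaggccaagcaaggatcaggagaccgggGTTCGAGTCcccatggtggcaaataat
gei-1 (chrIII:3355948-3356048, + strand): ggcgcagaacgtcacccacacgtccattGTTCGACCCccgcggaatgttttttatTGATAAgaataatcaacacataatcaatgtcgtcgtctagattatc
Y43F8C.11 (chrV:19671033-19671133, + strand): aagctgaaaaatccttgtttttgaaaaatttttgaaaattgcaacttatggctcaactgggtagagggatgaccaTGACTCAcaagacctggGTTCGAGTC
The reverse complement of the word appeared in the windows at F41B5.12, snt-6 and dot-1.3, and the word itself in those at Y77E11A.12, gei-1 and Y43F8C.11. The windows at Y77E11A.12 and Y43F8C.11, on different chromosomes, shared a run of 12 bases, which both print as tggctcaactgg. The longest run shared by any pair of the 18 windows was 21 bases, between Y77E11A.12 and ccep-135. A tRNA pseudogene was annotated within 200 bp of 4 of the 1096 summits, those nearest the starts of ccep-135, nipa-1, dyf-19 and srab-12.

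The weaker peaks were seen in both replicates far more often than relaxed peaks in general. A summit within 200 bp was present in both replicate relaxed lists for 1017 of 1096 weaker peaks (92.8%, 95% interval 91.1 to 94.2). The same held for 38.2% of all 29979 nuclear relaxed peaks and for 33.5% of the 18508 relaxed peaks that met the rule on position at any signal. It held for 917 of 959 promoter peaks of the same signal (95.6%) and for 434 of 439 reproducible peaks outside promoters (98.9%). The pooled list was made from the reads of both replicates, so the replicate lists are not independent of the rule and the share is a description. These intervals cover counting error only, because peaks are not replicates.

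Replicate 2 contained more of the weaker peaks than replicate 1, and its list was also longer (29250 nuclear peaks, against 23769). A replicate 2 summit lay within 200 bp of 1078 (98.4%) and a replicate 1 summit of 1035 (94.4%). Of the remaining peaks, 18 had a summit in replicate 1 alone and 61 in replicate 2 alone, and 0 had one in neither. The 61 had a median replicate 2 signal of 43.2, against 32.8 among the 1017 in both lists. The 18 had a median replicate 1 signal of 29.8, against 24.95 among the 1017.

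By median rank the replicate signals lay in the upper part of each replicate list, and replicate 2 was more often the higher. Replicate 1 signal had a median of 25 (lower and upper quartiles 19.8 and 30.6), with 11.45 as the lowest value and 80.7 as the highest. Replicate 2 signal had a median of 33.2 (quartiles 27.7 and 39.1) and ran between 12.7 and 216.1. The median rank was 4020 of 23769 nuclear replicate 1 peaks and 3452 of 29250 nuclear replicate 2 peaks. Replicate 2 was the higher of the pair at 730 of 1017 peaks (71.8%), with a median ratio of replicate 2 to replicate 1 of 1.33. The Spearman correlation of the replicate signals was -0.48 over these 1017 peaks and 0.24 over 434 reproducible peaks outside promoters. The pooled signal was held between 50 and 70 here, so a higher value in 1 replicate goes with a lower value in the other, and the negative value is no measure of disagreement.

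**Figure D1:**
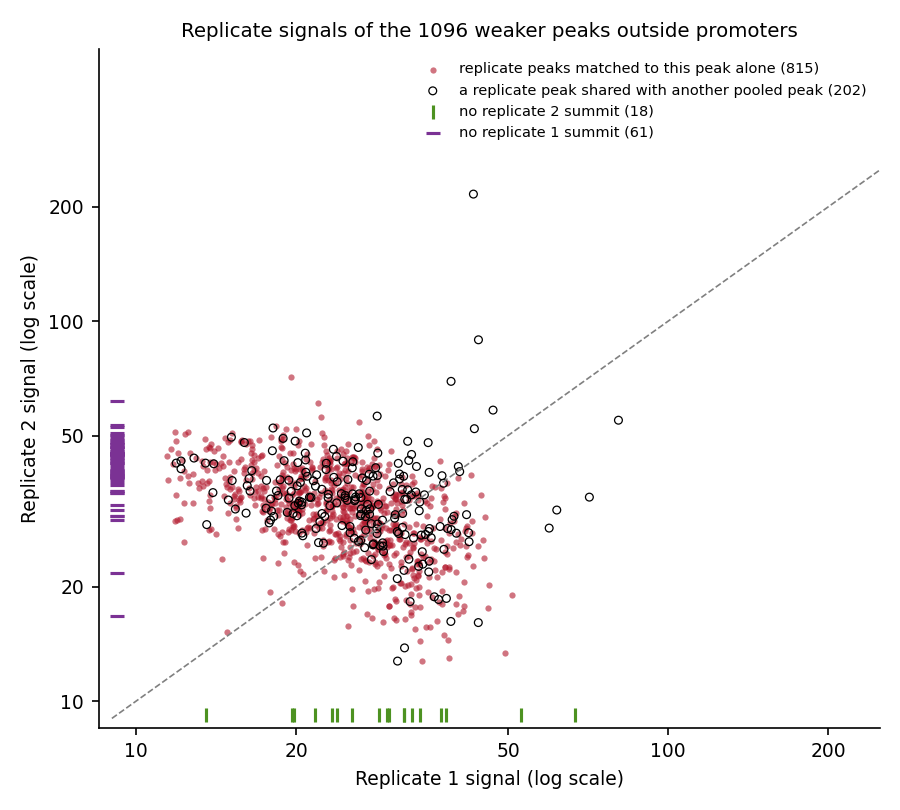
Replicate 1 signal (x axis, log scale) against replicate 2 signal (y axis, log scale) for each weaker peak outside promoters; both are the authors' enrichment values. Filled points have replicate peaks of their own, open circles share a replicate peak with another pooled peak, and marks at the edges have a summit in 1 replicate alone (18 and 61 peaks). The dashed line marks equal signals, and 730 of the 1017 peaks seen in both replicates lie above it.

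The share with both replicates climbed steeply with pooled signal just under these limits. Among relaxed peaks that met the rule on position it was 3.16% below a signal of 20, 21.8% between 25 and 30, 50.4% between 30 and 40 and 76.9% between 40 and 50. Within the limits it was 90.4% of 731 peaks between 50 and 60 and 97.5% of 365 peaks between 60 and 70. It was 98.47% between 70 and 80, 99.5% between 80 and 100 and 98.6% at 100 or more. Of the 196 such peaks between 70 and 80, 193 had a summit in both replicates and 6 were in the reproducible list, whose lowest peak outside promoters had a signal of 79.5.

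**Figure D2:**
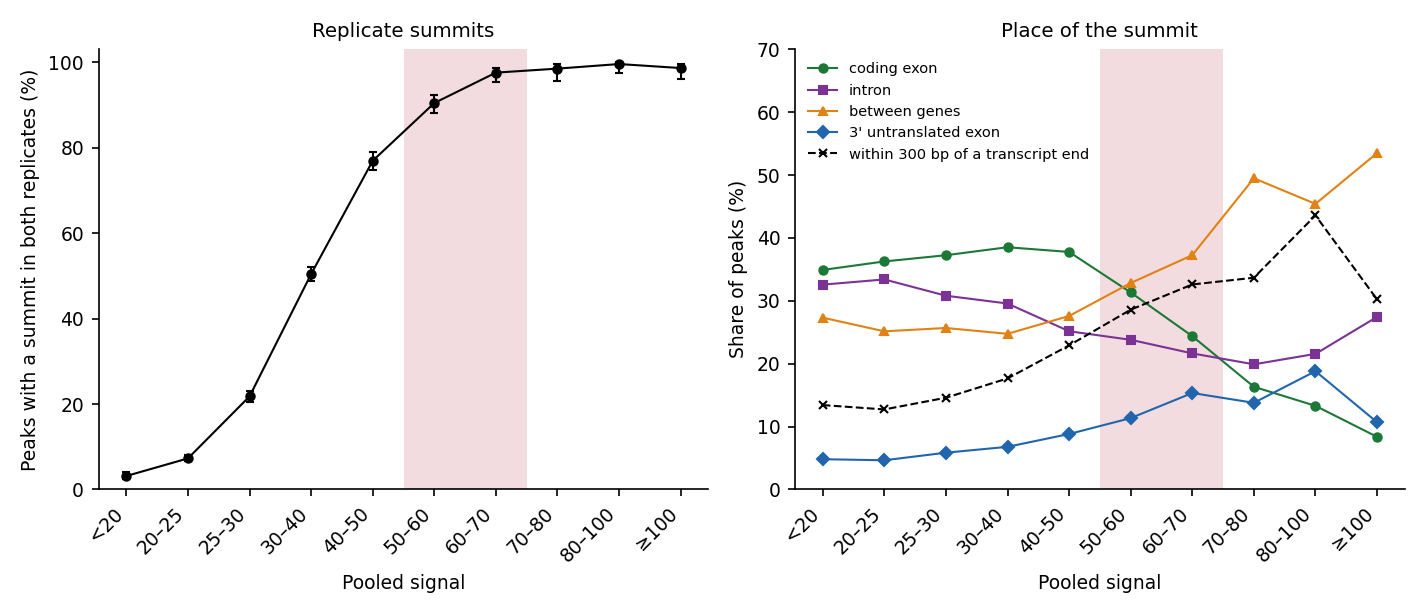
Left, the share of relaxed peaks outside promoters and away from short RNA genes with a summit in both replicates (y axis, %; bars are 95% Wilson intervals), by pooled signal (x axis). Right, the share of the same peaks by place of the summit (y axis, %); the shaded classes are the weaker peaks outside promoters, where the coding share was 31.3% and 24.4% and the share at transcript ends 28.6% and 32.6%.

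The edges of the signal limits ran through similar sites. The lowest weaker peaks lay in the 3′ untranslated exon of myrf-2 (signal 50, with 24.2 in replicate 1 and 24.0 in replicate 2), in intron 2 of lap-2 (50.01) and in a coding exon of rbr-2 (50.06, a value shared with peaks nearest sygl-1 and unc-64). The highest lay in a 3′ untranslated exon of the nucleoporin gene npp-9 (69.99), in a 5′ untranslated exon of unc-62 (69.96) and in a coding exon of col-91 (69.94). Just below the limits were peaks in unc-41 (49.99), hsp-110 (49.98) and upstream of dcp-66 (49.94). Just above were peaks nearest npr-24 (70.06), Y50D4C.12 (70.08) and sea-2 (70.09). Apart from the peak nearest unc-64, which had no replicate 1 summit, each of these had a summit in both replicates.

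Most of the weaker peaks stood alone, but those ranked first often did not. The rank was set by the lower of the replicate signals, and 205 of the 1096 shared a replicate peak with another pooled peak. Among the first 12 by rank, 9 shared one, and 7 lay within 1000 bp of a stronger pooled summit. Over all weaker peaks, 108 (9.85%) lay within 1000 bp of a stronger summit, against 30.3% of the relaxed peaks outside promoters. A stronger summit was one above the peak's own signal, and most of the relaxed peaks had less signal than the weaker peaks. The rule on signal therefore bears on this contrast, which does not show that the weaker peaks are more isolated. The median distance to the nearest reproducible summit was 21163 bp, and 61 (5.57%) lay within 1000 bp of one. Of the 813 peaks with neither a shared replicate peak nor a stronger summit within 1000 bp, 747 (91.9%) had a summit in both replicates.

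The peak that ranked first lay in intron 1 of lag-1, the gene for the DNA-binding factor of Notch signalling (chrIV:6100002-6100437). Its signal was 80.7 in replicate 1 and 54.9 in replicate 2, with 54.7 in the pooled list. A reproducible summit of signal 138.2 lay 199 bp away and used the same replicate peaks, so the replicate values belong to both. The same arrangement held at gyg-2, a glycogenin gene, at chrV:16745090-16745525 (replicate signals 46.9 and 58.3, stronger summit 212 bp away). It held in intron 17 of abts-4, nearest the start of mdl-1 (chrX:6750377-6750812, 43.2 and 52.1, 199 bp), and upstream of the G protein beta subunit gene gpb-1 (chrII:11749839-11750274, 39.1 and 69.4, 206 bp). On chromosome I, from which no window was printed, it held upstream of chd-7, within 200 bp of linc-91 (chrI:4701364-4701799, 44.0 and 89.3, 201 bp), and in intron 1 of ints-8, an Integrator subunit gene (chrI:13463800-13464191, 43.05 and 216.1). The replicate 2 value at ints-8 was the highest of any weaker peak, and a summit of signal 344.1 lay 223 bp from it. The RNA gene rpr-1, the RNA component of RNase P, was within 200 bp. In intron 5 of larp-1 (chrIII:5013923-5014358, 37.6 and 39.2) a summit of signal 74.85 lay 226 bp away.

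Other peaks of the first 12 had near equal signals in both replicates, although those at nadk-2 and sec-11 also shared a replicate peak with another pooled peak. In intron 1 of nadk-2, an NAD kinase gene (chrII:12050538-12050973), they were 40.3 and 41.5, with the next stronger summit 43927 bp away. Past the end of sec-11, a signal peptidase gene, in a 3′ untranslated exon of rnf-126 (chrI:3028044-3028479), they were 40.6 and 40.2. Peaks of this kind with replicate peaks of their own were F09G2.2 (chrV:7198262-7198697, 42.6 and 39.4, 43 bp past the transcript end) and pde-2, a phosphodiesterase gene (chrIII:8983976-8984411, 40.2 and 38.6, at -2297 bp from the start). The last of the 12 lay in a 3′ untranslated exon of ain-2, a gene of the microRNA silencing complex (chrI:4659625-4660060, 38.4 and 37.5), nearest the start of B0041.11.

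The next 13 by rank were nearest the starts of srh-2, eef-2, arx-5, cpg-1, unc-62, C01A2.9, Y54G2A.77, C27H6.9, T09F3.2, plk-2, egl-27, pos-1 and M163.11. Of these, eef-2 codes for a translation elongation factor, arx-5 for a subunit of the Arp2/3 actin complex, and cpg-1 for an eggshell proteoglycan. The homeodomain factor gene unc-62 and the chromatin factor gene egl-27 are known for roles in development. The kinase gene plk-2 acts in meiosis, and pos-1 codes for an RNA-binding protein of early embryos. At eef-2 the signals were 37.3 and 42.7 in a coding exon, and at unc-62 they were 35.98 and 36.89 in a 5′ untranslated exon. At pos-1 they were 38.15 and 34.3, 16 bp past the transcript end.

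The weaker peaks lay inside genes about as often as the bases open to the rule, whose shares are given below. This was more often than for the reproducible peaks and the promoter peaks of the same signal. Promoter windows reach mainly upstream of starts, so the rule itself bears on the contrast with promoter peaks. A protein-coding gene covered 720 of 1096 summits (65.7%, 95% interval 62.8 to 68.4), against 222 of 439 reproducible peaks outside promoters (50.6%, 45.9 to 55.2) and 49.5% of the promoter peaks. Relaxed peaks outside promoters at any signal were inside genes more often still (73%). The widest difference to the reproducible peaks was in coding exons, which held 318 weaker peaks (29.0%, 26.4 to 31.8) and 48 reproducible peaks (10.9%, 8.35 to 14.2). Gaps between genes held 376 weaker peaks (34.3%) and 217 reproducible peaks (49.4%). Introns held 253 weaker peaks (23.1%) and 107 reproducible peaks (24.4%), which is within counting error. The intervals treat peaks as independent, and no test was made.

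Set against the bases open to the rule, introns were under-represented and 3′ untranslated exons over-represented. These bases made up 71.5% of the nuclear genome. Of them 36.4% were intronic, against 23.1% of weaker peaks. Of them 3.24% were in 3′ untranslated exons, against 139 weaker peaks (12.7%, 10.8 to 14.8), 14.8% of reproducible peaks and 6.55% of relaxed peaks. Coding exons made up 25.25% of the bases and gaps between genes 34.7%, near the shares of the weaker peaks. The 5′ untranslated exons held 10 weaker peaks (0.912%), among them those in unc-62, R03D7.2, C34C12.2 and ZK484.6.

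**Figure D3:**
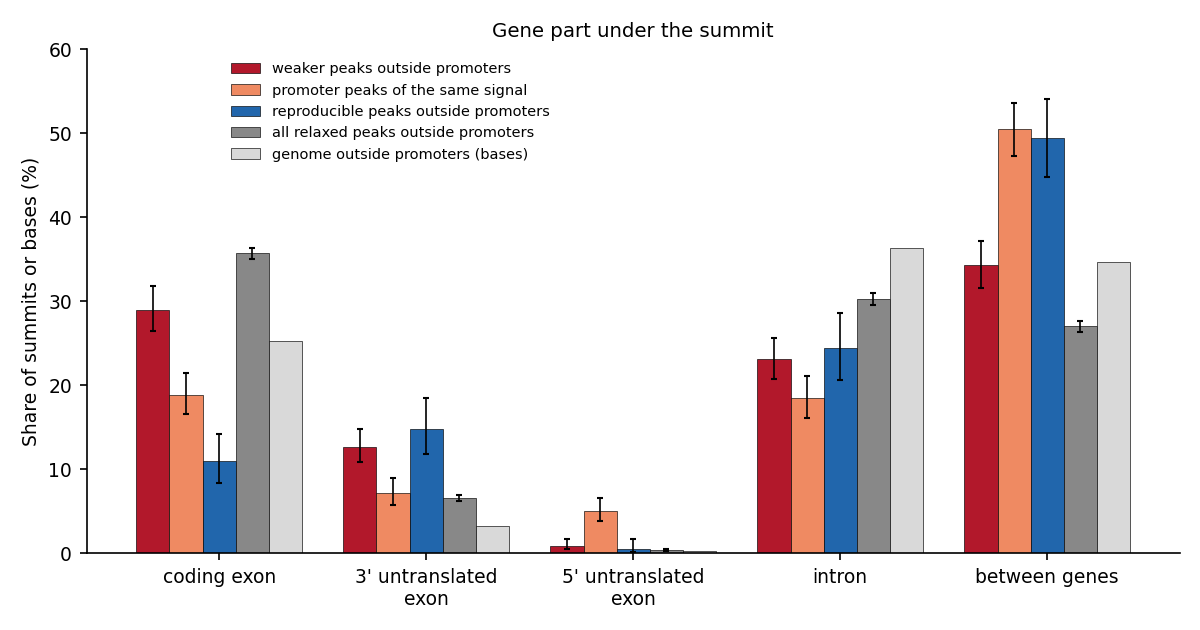
Share of summits, or of bases for the last bar (y axis, %), by gene part (x axis). Bars are, in order, the weaker peaks outside promoters (1096), promoter peaks of the same signal (959), reproducible peaks outside promoters (439), relaxed peaks outside promoters at any signal (18508) and the bases outside promoters; error bars are 95% Wilson intervals. Coding exons held 29.0% of the weaker peaks and 10.9% of the reproducible peaks.

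The coding share fell with signal across the limits and beyond them. It was 31.3% of peaks between 50 and 60, 24.4% between 60 and 70, 16.3% between 70 and 80 and 8.37% at 100 or more. Below the limits it was 37.8% between 40 and 50. The gene part made little difference to replication: both replicates held 93.1% of coding, 94.5% of intronic, 93.5% of 3′ untranslated and 91.2% of intergenic weaker peaks. Median replicate 1 signal ran between 23.8 in introns and 28.7 in 5′ untranslated exons.

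Coding peaks were found in genes of many kinds, among them cuticle collagens. Collagens of this family form the exoskeleton and are small, GC-rich genes with related repeats. Of 175 cuticle collagen genes, 26 hosted or were nearest to a weaker peak (14.9%), against 1123 of 19973 protein-coding genes (5.62%) counted the same way. Some relaxed peak outside promoters was counted for 118 of the 175, against 47% of all protein-coding genes. The 26 peaks were 2.37% of the weaker peaks, against 2 of 439 reproducible peaks outside promoters (0.456%) and 1.19% of the relaxed peaks. Coding exons of the collagen gene itself held 24 of the 26. Each of the 24 had a summit in both replicates, and replicate 2 was higher at 21 of them.

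Replicate values of the collagen peaks varied. In col-105 the signals were 33.0 in replicate 1 and 37.4 in replicate 2, in rol-1 they were 30.7 and 30.95, and in col-71 they were 30.2 and 33.3. In col-91, at 69.94 near the upper limit of pooled signal, they were 29.8 and 40.5. In sqt-3, whose loss alters body shape, they were 22.8 and 29.97, and in dpy-8, another body shape gene, 22.6 and 41.8. Replicate 1 was the higher in col-175 (37.53, with 19.53 in replicate 2) and in col-74 (35.49 and 21.87), while col-171 had 18.08 and 52.34. The lowest replicate 1 value among all 26 was 12.2, at the peak nearest col-122, which lay in a coding exon of lron-14. GC content of the 24 coding windows had a median of 59.9% and ran between 49.5% and 77.2%, against a median of 48.5% in coding weaker peaks in general. Of the 24 windows, 20 were unique in every 31-base word, and 7 of the 24 shared a replicate peak with another pooled peak. The part that base composition or related repeats play in these values was not tested.

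Germline genes were also counted. The list held 47 genes of germ cell fate, meiosis and early embryos. Of them, 12 (25.5%) had a weaker peak, against 5.62% of all protein-coding genes. Some relaxed peak outside promoters was counted for 39 of them, against 47% of all protein-coding genes. The list had 13 weaker peaks in all. These were 1.19% of the weaker peaks, 2.05% of the reproducible peaks outside promoters and 0.578% of the relaxed peaks. Each of the 13 was in both replicates. Coding exons held 6, 3′ untranslated exons 5 and gaps between genes 2, and 6 lay within 300 bp of a transcript end.

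Among them, car-1, an RNA-binding protein gene, had 33.55 in replicate 1 and 35.5 in replicate 2 at its 3′ end. The meiotic axis gene htp-1 had 35.65 and 32.6 in a coding exon. The paired CCCH zinc finger genes mex-5 and mex-6 both had a peak, with 31.6 and 35.3 in a coding exon of mex-5 and 30.6 and 35.1 in the 3′ untranslated exon of mex-6. The RNA helicase genes cgh-1 (38.8 and 29.35) and glh-1 (22.1 and 34.35) had peaks in 3′ untranslated exons. Both peaks at daz-1, an RNA-binding protein gene of the germline, were seen in each replicate, with 17.2 and 31.7 in the coding exon and 32.8 and 17.2 in the 3′ untranslated exon.

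Genes of epidermal morphogenesis, the process DIE-1 is known for in embryos, were counted as a further list. Of 41 such genes, 10 (24.4%) had a weaker peak, against 5.62% of all protein-coding genes. Some relaxed peak outside promoters was counted for 34 of the 41, against 47% of all protein-coding genes. The list had 11 weaker peaks in all, of which 10 were in both replicates. The 11 made up 1.00% of the weaker peaks, 1.14% of reproducible peaks outside promoters and 0.978% of relaxed peaks, so the shares were near each other. The spectraplakin gene vab-10 had 27.45 and 41.0 in a coding exon. The alpha-catenin gene hmp-1 had 34.3 and 26.7, 210 bp past its end, and the GATA factor gene elt-3 had 18.9 and 49.15, 251 bp past its end. The GTPase gene rho-1 had 1 peak with 33.35 and 21.03 and another with 43.3 in replicate 2 and no replicate 1 summit, both in its 3′ untranslated exon. The other genes of the list with a peak were pac-1, zen-4, unc-70, mel-11, nhr-23 and dlg-1.

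Genes of ASE asymmetry, the other process DIE-1 is known for, had no weaker peak. The list held 29 genes, of which 15 had some relaxed peak outside promoters. With a weaker peak at 5.62% of all protein-coding genes, a count of 0 in so short a list is near that share. At die-1 itself the relaxed list held 5 peaks outside promoters, all upstream, with pooled signals between 27.7 and 43.8. A sixth, of signal 52.7, lay at -470 bp from the start and so in the promoter window. At unc-119, a marker often used to make transgenic worms, 4 relaxed peaks outside promoters had signals between 21.1 and 46.6. A peak of signal 60.07 lay in the promoter window, at -639 bp from its start, with 23.03 in replicate 1 and 32.58 in replicate 2.

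Insulin signalling genes held 10 weaker peaks, 7 of them at daf-16. The list had 13 genes, of which daf-16, daf-2, akt-2 and aap-1 had a peak, and the 10 peaks were all in both replicates. The 10 were 0.912% of the weaker peaks, against 0.683% of reproducible and 0.4% of relaxed peaks outside promoters. The 4 genes were 30.8% of this short list, against 5.62% of all protein-coding genes. Some relaxed peak outside promoters was counted for 11 of the 13, against 47% of all protein-coding genes. The gene daf-16 codes for the FOXO factor at the end of this pathway and spans 26206 bp, and 6 summits lay inside it, more than in any other gene. Along the gene their replicate signals were 34.85 and 33.6, 20.1 and 31.5, and 27.2 and 35.8 in intron 2, then 19.7 and 45.1 and 35.6 and 23.2 in intron 3. The sixth, in a coding exon, had 17.3 and 36.4, and a peak past the gene had 13.7 and 42.5. In the insulin receptor gene daf-2 a peak in intron 1 had 28.4 and 39.3. The gene daf-16 held 20 relaxed peaks outside promoters in all. By comparison mbk-2, of 26804 bp and also with 20 relaxed peaks, held 2 weaker peaks.

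Few other genes held more than 1 weaker peak. The 720 summits inside genes fell in 647 genes, of which 63 held 2 or more and 5 held 3 or more. Besides daf-16 these were T28B11.1 with 5 peaks, 4 of them in its 17091 bp intron 1, and ulp-4, snrp-200 and tra-1 with 3 each. The genes were named here because of these counts. In tra-1, the zinc finger gene at the end of the sex determination pathway, the 3 peaks lay in intron 4 with pooled signals of 53.41, 61.13 and 54.03, and the last had no replicate 1 summit.

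The other lists of housekeeping, receptor and tissue genes rested on 23 peaks or fewer each. Ribosomal protein genes had 9 of 81 with a peak (11.1%), of which rps-15 (26.9 and 33.9) and rpl-13 (26.2 and 54.3) had it in a coding exon within 50 bp of the transcript end. They had 15 reproducible peaks outside promoters (3.42%) and 68 relaxed ones (0.367%), against 9 weaker ones (0.821%). Heat shock and DnaJ genes had 8 of 52 (15.4%), among them hsp-90 (36.3 and 23.3), hsp-60 (30.2 and 25.7) and dnj-19 (31.2 and 26.7), each in a coding exon. Of the 52, 36 had some relaxed peak outside promoters. Heat shock and DnaJ genes made up 0.821% of weaker, 0.683% of reproducible and 0.427% of relaxed peaks. Nuclear hormone receptor genes had 18 of 269 (6.69%), with 23 peaks. Of these, nhr-46 and nhr-137 hosted or were nearest to 3 peaks each, and the highest replicate 1 value, 40.3, lay in an intron of nhr-27. Nuclear hormone receptor genes made up 2.1% of weaker, 2.05% of reproducible and 1.59% of relaxed peaks. Body muscle genes had 6 of 34, Wnt signalling genes 4 of 28 (cam-1, lit-1, mom-2 and kin-19) and cell adhesion and axon guidance genes 7 of 65, against 5.62% of all protein-coding genes. In that order, 31, 23 and 46 of these genes had some relaxed peak outside promoters, against 47% of all protein-coding genes. Body muscle genes made up 0.639% of weaker peaks, 0.228% of reproducible and 0.594% of relaxed peaks. For Wnt signalling genes these shares were 0.365%, 0.683% and 0.373%, and for adhesion and guidance genes 0.639%, 0% and 1.16%. Both replicates held 4 of 7 body muscle, 7 of 9 heat shock and DnaJ and 8 of 9 ribosomal protein peaks. They held 21 of 23 nuclear hormone receptor, 6 of 7 adhesion and guidance and 4 of 4 Wnt signalling peaks. Over all weaker peaks this share was 92.8%.

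Chemoreceptor genes, the largest family counted, were rarely near a weaker peak, with 16 of 1202 (1.33%), against 5.62% of all protein-coding genes. They were also less often near any relaxed peak outside promoters, with 284 of 1202, against 47% of all protein-coding genes. Chemoreceptor genes made up 1.46% of weaker peaks, 0.911% of reproducible and 2.16% of relaxed peaks. F-box and related genes (6 of 412), neuropeptide genes (2 of 144), and cytochrome P450, UGT and GST genes (3 of 185) were also under 2%. C-type lectin genes had 10 of 240, homeobox genes 3 of 86 (lim-7, ceh-9 and ceh-60) and ion channel and receptor genes of neurons and muscle 15 of 323. Histone genes had 0 of 81, and 11 of the 81 had some relaxed peak outside promoters. Both replicates held 15 of 16 chemoreceptor, 4 of 7 F-box and related, and 13 of 15 ion channel and receptor peaks. They held 2 of 3 cytochrome P450, UGT and GST peaks and all lectin, homeobox and neuropeptide peaks. The lists differ in gene length and in distance to neighbours, and the part of these in the counts was not tested.

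Many of the weaker peaks lay at the ends of transcripts. A summit lay within 300 bp of the end of a protein-coding transcript for 328 of 1096 weaker peaks (29.9%, 95% interval 27.3 to 32.7). It did so for 318 of 959 promoter peaks of the same signal (33.2%, 30.25 to 36.2), so the place at transcript ends was not particular to peaks outside promoters. It did so for 165 of 439 reproducible peaks outside promoters (37.6%, 33.2 to 42.2), for 16.97% of relaxed peaks and for 10.1% of the bases open to the rule. This landmark was chosen after the gene parts had been seen. The summits peaked just past the end: 111 (10.1%) lay in the first 100 bp past it and 48 (4.38%) in the last 100 bp before it, against 9.49% and 3.86% of the promoter peaks. The next step, 100 to 200 bp past the end, held 62 weaker peaks (5.66%). It held 98 promoter peaks (10.22%), their highest share. Over the 328, the median was 45 bp past the end, with quartiles at -47.25 bp, inside the transcript, and 128 bp past the end. Of them 125 were in 3′ untranslated exons, 85 in coding exons and 16 in introns, and nearly all others were between genes.

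**Figure D4:**
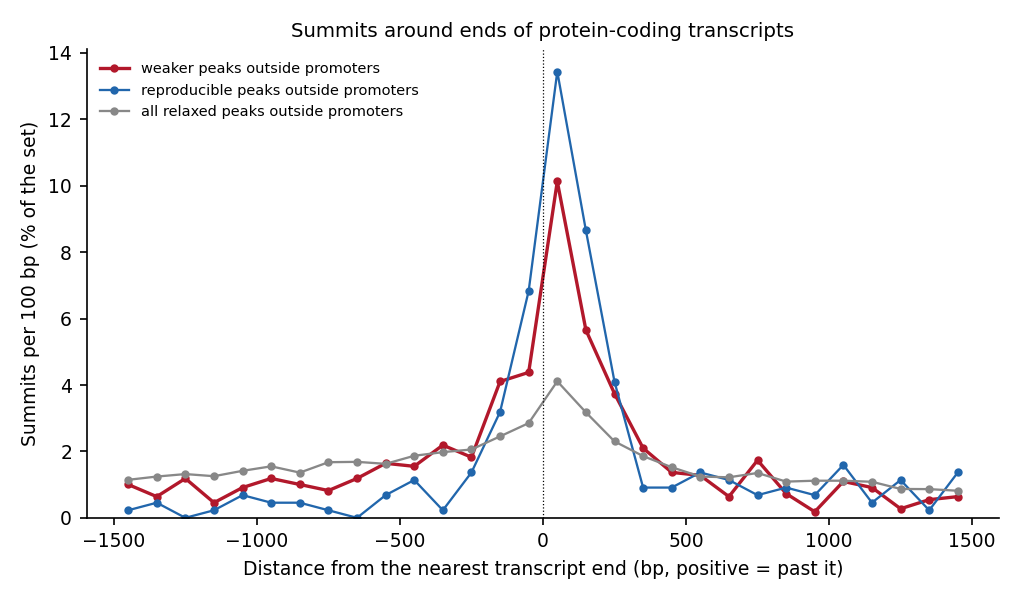
Distance of summits from the nearest end of a protein-coding transcript (x axis, bp, positive past the end) in steps of 100 bp, as a share of each set (y axis, %). The weaker peaks outside promoters reach 10.1% in the first 100 bp past the end, reproducible peaks 13.4% and relaxed peaks outside promoters 4.11%.

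Peaks at transcript ends were replicated like the rest and differed in base composition. Both replicates held 308 of 328 (93.9%) at ends and 709 of 768 (92.3%) away from them. Median GC content was 38.6% at ends and 47.5% away, and median pooled signal was 57.4 and 56.0. Of the first 25 by rank, 9 lay within 300 bp of a transcript end, among them F09G2.2 and pos-1 described above. At arx-5 the summit was 40 bp past the end with 36.4 in replicate 1 and 36.6 in replicate 2, and at cpg-1 it was 87 bp past with 37.5 and 36.3. A stronger summit of signal 116.1 lay 202 bp from the one at cpg-1, and both examples were picked for their place at ends.

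A smaller share of the weaker peaks lay at transcript ends on the X chromosome than on autosomes. Of 161 weaker peaks on X, 21 (13.0%) lay within 300 bp of a transcript end, against 307 of 935 (32.8%) on autosomes. Among reproducible peaks outside promoters it was 8 of 70 (11.4%) on X and 157 of 369 (42.55%) on autosomes. Among relaxed peaks it was 11.1% on X and 18.03% on autosomes. The 3′ untranslated exons showed the same, with 9 of 139 weaker peaks there on X (6.475%), against 18.6% of intronic and 18.6% of intergenic ones.

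Intronic weaker peaks lay in long introns and often in the first one. The intron around the summit had a median length of 2103 bp, against 3573 bp for reproducible peaks and 858 bp for relaxed peaks. The first intron held 93 of 253 (36.8%, 31.1 to 42.9), against 42.99% of reproducible and 27.46% of relaxed intronic peaks. Median GC content of these windows was 45.5%, between that of reproducible (49.5%) and of relaxed intronic peaks (38.6%). In coding exons the order differed, with 48.5% for weaker, 44.1% for reproducible and 45.5% for relaxed peaks.

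Between genes the weaker peaks had no marked preference for an arrangement of neighbours. Tandem genes flanked 201 of 376 (53.5%), divergent genes 108 (28.7%) and convergent genes 67 (17.8%). For relaxed intergenic peaks the shares were 55.6%, 26.9% and 17.6%, and for reproducible ones 58.1%, 22.6% and 19.4%. The nearest protein-coding start was 1668 bp away in the median (quartiles 1042 and 2690 bp) and 35184 bp at most, and 350 summits (31.9%) lay upstream of it. The 1096 peaks had 989 different nearest genes, and for 551 the nearest start was that of the gene they lay in.

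Other annotated genes were near few weaker peaks. A gene of the ncRNA class lay within 200 bp of 91 (8.30%, 6.81 to 10.1), against 14.4% of reproducible peaks outside promoters (63 of 439) and 5.37% of relaxed peaks. By rank the first 4 were beside rpr-1, M163.12, R13H8.4 in daf-16 and K02B9.6 upstream of alg-1. A pseudogene lay near 32 (2.92%), with M162.1, F15D3.3, Y39A3A.7 and F48F5.2 first. A lincRNA lay near 6, first linc-91, linc-143 in daf-2, linc-87 and linc-129. A piRNA gene lay near 5, and the antisense RNA gene anr-3 lay near 1, in ari-1.4. None of these classes was near 962 of the 1096 summits (87.8%).

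Over all gene parts together, several short words were more frequent under weaker peaks than under relaxed peaks and less frequent than under reproducible peaks. The GA repeat GAGAGA was in 161 of 1096 windows of the summit with 50 bases on either side (14.7%, 12.7 to 16.9), against 23.5% of reproducible and 8.76% of relaxed peaks outside promoters and 4.905% of all windows of that length outside promoters. Matches were counted on both strands, once per window. The word CTGCGTC was in 33 (3.01%), against 8.43% of reproducible peaks, 1.65% of relaxed peaks and 0.688% of all windows. The E box CACGTG was in 48 (4.38%), against 7.745%, 3.17% and 1.64%, and GCGCGC in 29 (2.65%), against 5.47%, 1.36% and 0.587%. The B box core GTTCGANNC had 1.64%, against 4.1%, 1.30% and 0.728%, and the interval of its share, given above, covers that of relaxed peaks.

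A few words were less frequent under weaker peaks than in the genome outside promoters. The run TTTTTTTT was in 66 (6.02%), against 5.01% of reproducible peaks, 7.52% of relaxed peaks and 12.8% of all windows. TATAAA was in 5.93%, against 5.695%, 8.49% and 10.9%, and the homeodomain word TAATTA in 3.01%, against 1.595%, 3.83% and 4.63%. By contrast, 2 words were more frequent under weaker peaks than in all windows. CACACACA was in 3.01% of weaker, 3.42% of reproducible and 1.38% of relaxed peaks and in 0.5425% of windows, and GGGCGG in 3.38%, 5.92%, 2.95% and 1.51%. The GATA word TGATAA was in 7.48%, close to 7.97%, 7.42% and 9.07%. The forkhead word TGTTTAC was in 0.730% of weaker peaks, the AP-1 word TGANTCA in 1.92% and the nuclear receptor word AAGGTCA in 0.912%. For these words shares of weaker and relaxed peaks are set side by side in coding exons, introns and gaps between genes. The forkhead word had 0.629% against 0.5%, 0.791% against 1.23% and 0.532% against 1.34%. The AP-1 word had 2.2% against 2.91%, 1.58% against 1.84% and 1.86% against 2.36%. The nuclear receptor word had 1.26% against 0.711%, 0% against 0.768% and 1.6% against 1.1%. Words may overlap one another in a window, and each was counted on its own.

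The words were unevenly spread over gene parts. GAGAGA was in 91 of 376 intergenic weaker peaks (24.2%) and in 13.4% of intronic ones, but in 4.72% of coding ones, against 27.6%, 34.6% and 8.33% of the reproducible peaks in the same parts. In 3′ untranslated exons the order was the other way, with 17 of 139 weaker peaks (12.2%), against 2 of 65 reproducible peaks (3.08%). In coding exons the share of weaker peaks was also below that of relaxed peaks (6.04%). CTGCGTC was in 4.74% of intronic and 4.79% of intergenic weaker peaks, against 15% and 9.68% of reproducible ones. A word in a window is a description and no sign of a bound factor.

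The windows were mostly unique sequence. Median GC content was 44.55%, the same as for reproducible peaks outside promoters, and 41.6% for relaxed peaks. Every 31-base word was found once in the genome for 1015 of 1096 windows (92.6%), against 91.6% of reproducible and 90.5% of relaxed peaks. In 3 windows no such word was unique, those in Y6B3B.1, in ptc-1 and past the end of snpn-1. More than 50% of the window was soft-masked as repeat in 114 (10.4%), against 6.38% of reproducible and 17.1% of relaxed peaks.

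Along the genome the weaker peaks were densest on chromosomes III, II and I and sparsest on X. Per Mb of bases open to the rule there were 19.5 on III, 18.1 on II, 17.35 on I, 14.2 on IV, 12.6 on V and 12 on X. Counted the same way, relaxed peaks outside promoters at any signal were also denser on III, II and I than elsewhere and sparsest on X. This pattern was therefore not particular to the weaker peaks. The X chromosome held 161 (14.7%, 12.7 to 16.9) of the weaker peaks and 18.7% of the open bases, against 15.95% of reproducible and 15.3% of relaxed peaks. In coding exons X held 10.4% of the weaker peaks. Chromosome III held 18.1% of the weaker peaks and 23.2% of the reproducible peaks outside promoters.

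Within autosomes the weaker peaks leaned to the gene-rich centres. The middle 50% of the autosomes held 544 of 935 (58.2%, 55.0 to 61.3), against 65.2% of promoter peaks of the same signal, 59.1% of reproducible and 50.8% of relaxed peaks outside promoters and 48.15% of open bases. The share was between 57.5% and 58.95% on each of the 5 autosomes. On X the middle held 75 of 161 (46.6%). With each chromosome cut into 10 equal pieces, the density ran between 5.14 per Mb in piece 2 of X and 32.5 per Mb in piece 6 of II.

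**Figure D5:**
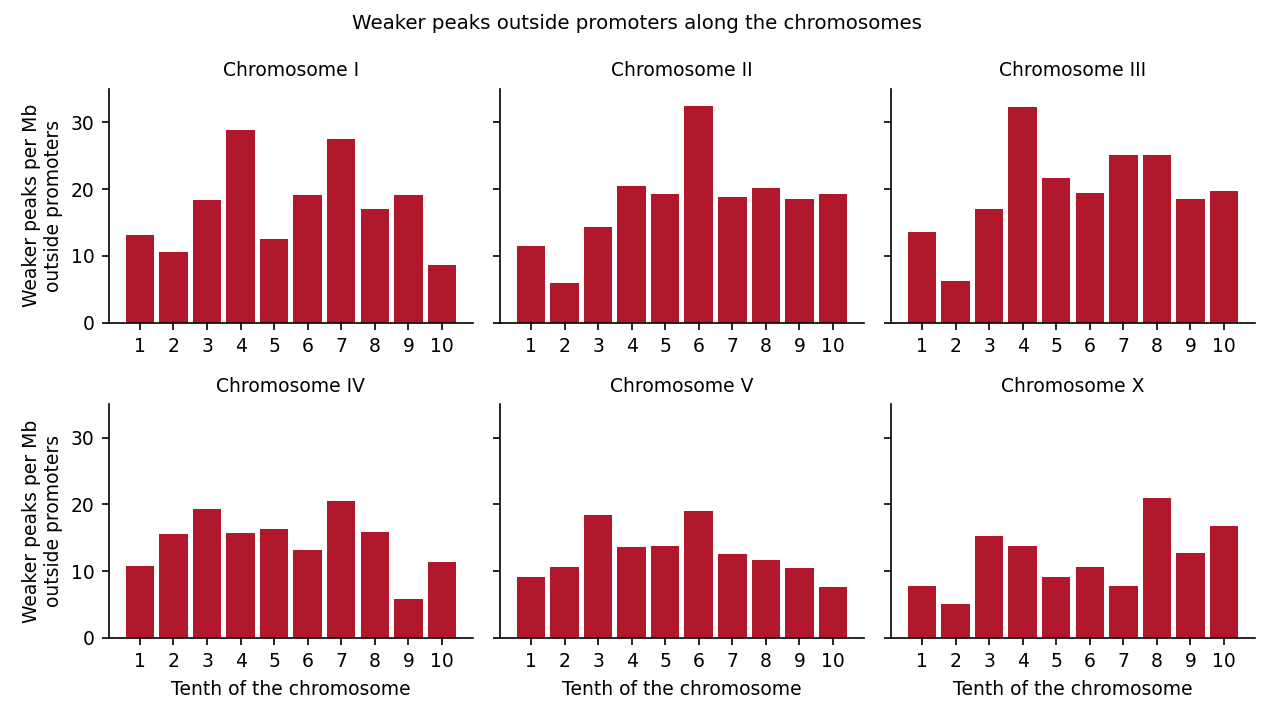
Weaker peaks outside promoters per Mb of bases open to the rule (y axis) in each of 10 equal pieces of the 6 nuclear chromosomes (x axis). Values run between 5.14 in piece 2 of X and 32.5 in piece 6 of II.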

How the data were processed

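Anti-GFP chromatin immunoprecipitation sequencing of 2 replicates of 1 group was analysed from peak lists on ce11. Per the deposited file notes, the authors called relaxed peaks on each replicate and on the pooled reads, with a control alignment, and made the reproducible list from these. Peak caller, thresholds and read depths: not given in the sources used here. Signal values are the authors' enrichment per peak, of unstated scale. The q column of the deposited lists was read as −log10 q, and the summit offset column of the deposited lists gave each summit as a score in bp from the peak start. Lists on ce10 were not used here.

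Summits were placed on WBcel235 gene models of Ensembl with Python 3.11.15 (pandas 2.3.3, numpy 2.4.6, matplotlib 3.10.9, scipy 1.17.1). A base with several annotations counted as coding, then untranslated, then intronic. A gene counted for a list if it hosted a summit or had the nearest start. Shares carry 95% Wilson intervals for counting error only, and no test was made. The named peaks were the first by the lower replicate signal, overall and in each gene part, class and list, and those at the limits. Any other gene named was picked after its values were seen. The members and lists were chosen with earlier results of these data known. The counting steps were tested on simulated data. Alternatives covered promoter windows, summit distances, replicate lists, annotation order and subsets of peaks.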

Additional observations from a re-analysis of the deposited data

How the results depend on the processing

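The number of weaker peaks ran between 762 and 1406 over other windows and distances. The share with a summit in both replicates was 76.7% at a summit distance of 100 bp, 96.4% at 500 bp, 96.35% by overlap of peaks and 73.2% among the 10000 strongest peaks of each replicate. Without peaks that share a replicate peak it was 91.5%. With 1 replicate left out it ran between 94.4% and 98.4%. The share inside genes was 69.9% with the spans of other genes added and 62.7% at a signal of 60 to 70. Over the peaks with a summit in replicate 2, or in replicate 1, it ran between 65.96% and 65.99%. Giving introns precedence made the intronic share 26.55% and the coding share 25.7%. A narrower middle of the autosomes, 1 of 3 equal pieces, held 37.3%. The share at transcript ends was 19.98% within 150 bp, 39.96% within 600 bp and 25.3% among peaks seen in 1 replicate alone. The alternatives on transcript ends, on stronger summits, on shared replicate peaks, on genes of the ncRNA class (1005 peaks) and on the share inside genes with 1 replicate left out were chosen after seeing the data. No paired analysis was possible because the series holds 1 group. Replicate depths were not known here, so the part of depth in the difference between replicates was not tested.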
